A study of Citrus reticulata with 36 samples.

Results

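Nucellus-restricted features are the 150 transcripts whose level in laser-captured nucellus stood furthest above their level in integument, out of 128861 features quantified in ovules of ponkan mandarin (Citrus reticulata). They were chosen on measured values. Levels were taken as CPM, the count divided by its library total and set to a common scale. A feature was eligible when its lowest CPM over the 18 nucellus libraries exceeded its highest CPM over the 18 integument libraries and its median integument CPM was under 5. For every eligible feature a margin was taken as the lowest of the 6 nucellus group medians minus the highest of the 6 integument group medians, on the log2(CPM + 1) scale. In all, 320 features were fully separated in this direction, 187 of them were under the integument limit, and the 150 with the largest margins were kept. In the opposite direction 790 features were fully separated, and 648 of those had a median nucellus CPM under 5. Every difference between nucellus and integument given for the 150 features is therefore a description of how they were selected and carries no test.

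The nucellus is the maternal tissue that encloses the embryo sac of an ovule, and the integument surrounds it and later forms the seed coat. In many citrus types some nucellus cells develop directly into asexual embryos, called nucellar embryos, which are genetically identical to the mother tree and grow beside the sexual embryo in the same seed. The deposited identifiers carry no gene names, so no function, protein or sequence can be attached to a feature here, and neither tissue could be checked against defining marker genes.

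Nucellus and integument were sampled at 18, 28 and 32 days after pollination (DAP) from the cultivar labelled MT, Huagan No.4 ponkan, and from the cultivar labelled WT, Egan No.1 ponkan; no treatment is given and MT is not spelt out. Each of the 12 groups of tissue, cultivar and stage holds 3 libraries, described as biological replicates. The labels do not say how many plants were used, so p-values measure the spread between these libraries. Stage was given in the deposited tables as a digit from 1 to 3, read here as 18, 28 and 32 DAP in the order of the design text, and each DAP below rests on that reading. Total counts ran from 12687779 to 20947644 per library. In the nucellus of WT at 28 DAP, replicate 1 stood apart: its 100 most abundant features took 51.7% of all counts and its TMM scaling factor of 0.592 was the lowest of 36, so that a CPM in this library depends strongly on the scaling. Values without it are given beside several of the results below.

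The 150 features were moderately abundant in the nucellus and scarce, but seldom absent, in the integument. Their mean level over the nucellus libraries had a median of 17.5 CPM, with quartiles of 9.06 and 35.2 CPM, and ran from 2.43 to 904 CPM. Over the integument libraries the mean had a median of 1.19 CPM, with quartiles of 0.403 and 2.52 CPM, and ran from 0.0160 to 5.87 CPM. For comparison, the 57344 features that passed a filter on low counts had a median of 4.74 CPM in nucellus and 4.97 CPM in integument. All 150 passed that filter, which their nucellus level alone could satisfy.

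The ratio of nucellus to integument mean CPM had a median of 22.4, with quartiles of 10.9 and 37.5, and ran from 3.41 to 259.6; it exceeded 16 for 92 features and was under 4 for 6. Every one of the 150 was above 0 in all 18 nucellus libraries. None was at 0 in all 18 integument libraries. In the integument 89 were above 0 in every library, 8 were at 0 in at least 9 of the 18 libraries, and 30 never reached 1 CPM. The word restricted thus describes a difference of degree in the measured counts. Whether the low integument counts arose in integument cells was not tested. These libraries are bulk captures, in which fewer expressing cells and less RNA of a feature per cell cannot be told apart.

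**Figure D1:**
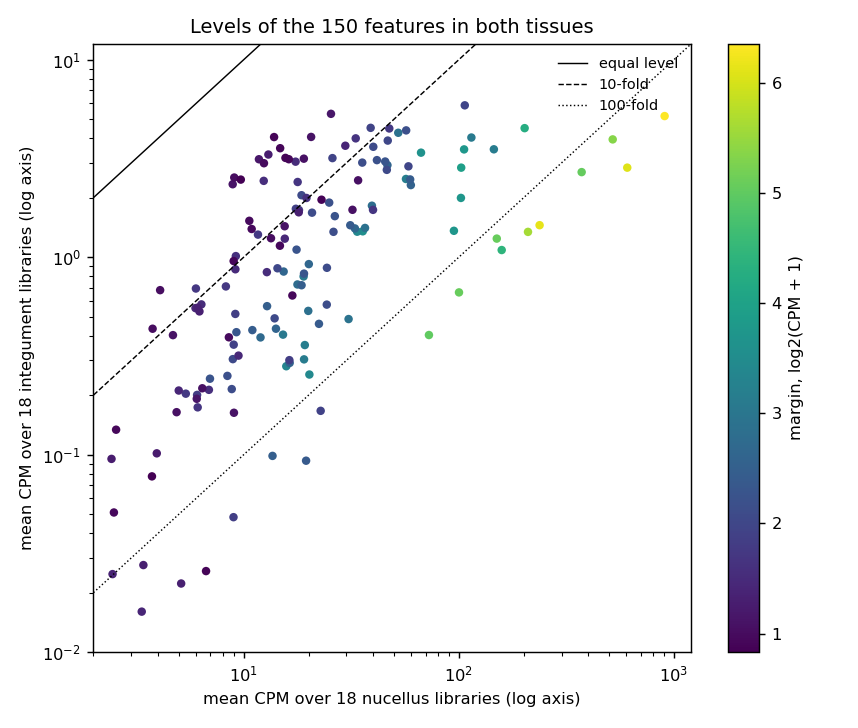
Mean CPM of each of the 150 features over the 18 nucellus libraries (x axis, log scale) against its mean CPM over the 18 integument libraries (y axis, log scale), coloured by margin; lines mark an equal level, a 10-fold and a 100-fold difference. All points lie below the line of equal level, and the features with the largest margins sit at the right, up to 904 CPM in nucellus.

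A few features carried most of the signal. The most abundant one held 13.2% of the summed nucellus CPM of the 150, the leading 5 held 38.6%, the leading 10 held 51.2% and the leading 50 held 82.1%. By level, 16 features averaged at least 100 CPM in nucellus, 90 averaged from 10 to under 100 CPM, and 44 averaged under 10 CPM.

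The feature with the largest margin, c95166_g1, was also the most abundant of the 150 by CPM. Its lowest, median and highest nucellus libraries held 262, 913 and 1713 CPM, against 0.391, 3.70 and 23.6 CPM in integument. The margin was 6.35 on the log2(CPM + 1) scale, and the means were 904 ± 346 CPM in nucellus and 5.18 ± 5.47 CPM in integument (SD, n = 18 each).

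Second by margin, c45637_g1 was lower but steadier, at 122, 238 and 341 CPM in its lowest, median and highest nucellus libraries, against 0.150, 1.11 and 5.79 CPM in integument. Next came c36715_g1, with 140, 617 and 1353 CPM in nucellus and 0.196, 2.44 and 9.38 CPM in integument. On a per-length scale the order changed. In FPKM (a value scaled to library total and to feature length), c36715_g1 led the 150 with a nucellus mean of 2427 ± 1240 FPKM (SD, n = 18), ahead of c95166_g1 with 954 ± 356 FPKM and c45637_g1 with 720 ± 190 FPKM.

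FPKM divides by length, and these features differ in it. The length implied by a feature's count and FPKM was 251 bases for c36715_g1 and 331 bases for c45637_g1, against 945 bases for c95166_g1. An implied length takes the summed counts as the FPKM total. It ran as low as 3.21 bases over all tested features, so it is not a measured transcript length. Another short feature among the leading 10, c92660_g1, had an implied length of 330 bases and ranked 4 of 150 by FPKM, at 471 ± 275 FPKM, although its nucellus mean was only 158 ± 96.2 CPM (SD, n = 18 each). Its lowest, median and highest nucellus libraries held 51.7, 131 and 346 CPM, and its integument libraries ran from 0 to 3.46 CPM.

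Of the remaining leading features, c93789_g1 was the most variable. It ran from 68.6 to 1566 CPM in nucellus with a median of 454 CPM, against 0.357 to 13.1 CPM in integument. The others were lower and less variable. c18891_g1 ran from 68.4 to 669 CPM in nucellus, with a median of 344 CPM, and reached at most 7.16 CPM in integument. c28486_g1 ran from 56.9 to 396 CPM, with a median of 178 CPM, and reached at most 4.10 CPM in integument. Single libraries weighed more in the next feature. c55231_g1 had a nucellus median of 118 CPM and a single high library at 470.4 CPM, against at most 7.45 CPM in integument. c85961_g1 had a nucellus median of 95.7 CPM and reached at most 1.81 CPM in integument. c35551_g1, with a nucellus range of 18.8 to 160 CPM and a median of 73.2 CPM, was the cleanest of the leading 10, staying at or below 0.769 CPM in every integument library. Over the leading 10 features the ratio of the nucellus to the integument mean ran from 121 to 214.

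**Figure D2:**
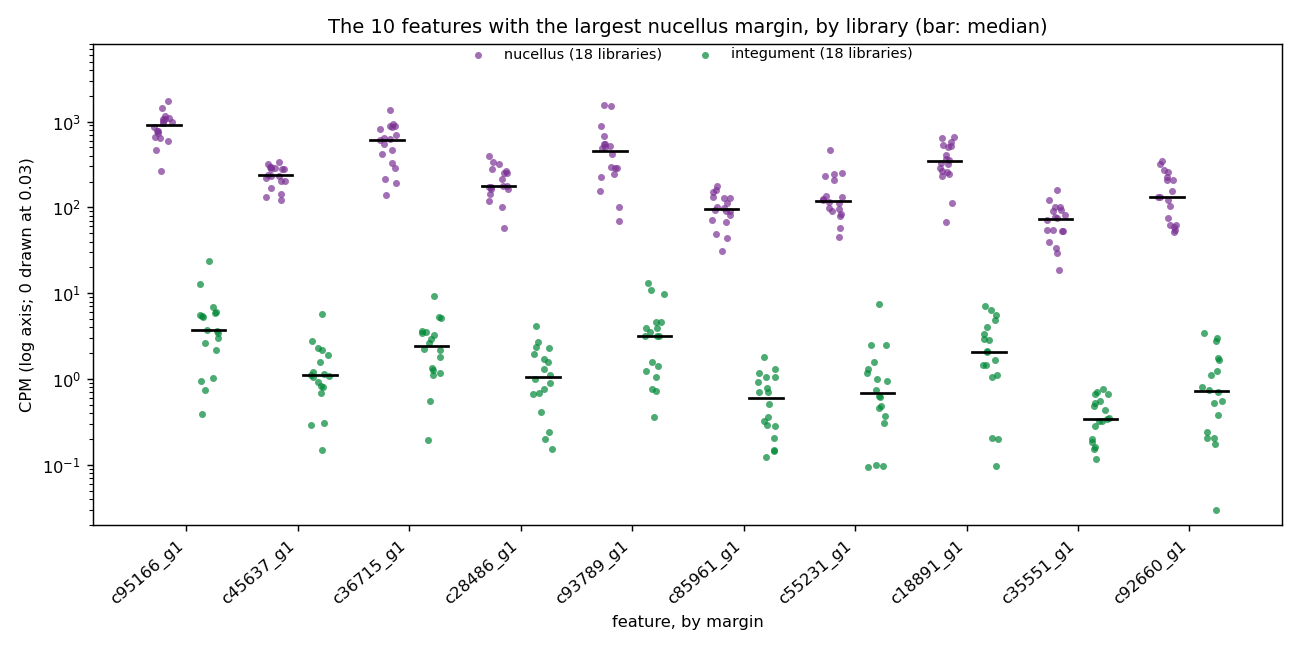
CPM (log axis) of the 10 features with the largest margin in each of the 18 nucellus libraries, left of each pair, and the 18 integument libraries, right; bars are medians and a value of 0 is drawn at 0.03 CPM. The 2 tissues do not overlap for any of the 10, which the selection required, and c95166_g1 is highest with a nucellus median of 913 CPM.

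The lower end of the 150 looked different. The least abundant feature, c74591_g1, averaged 2.43 ± 1.09 CPM in nucellus and 0.0951 ± 0.124 CPM in integument (SD, n = 18 each). Several features had an integument median of 0. The one of them with the lowest integument mean, c1896_g1, had 0.691, 2.81 and 8.55 CPM in its lowest, median and highest nucellus libraries and was at 0 in 15 of 18 integument libraries, with 5 counts over the tissue. Its large ratio of 209 rests on those few counts. At the other extreme, c66011_g1 had the highest integument median, 4.92 CPM, with 13.6 to 38.8 CPM in nucellus and 3.08 to 9.88 CPM in integument, a ratio of the means of 4.78.

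Margin and ratio therefore rank the features differently. The highest ratio, 259.6, belonged to c127604_g1, which was only 145th of 150 by margin since the margin is taken from its lowest nucellus group. Its lowest nucellus library held 0.423 CPM, and 13 of 18 integument libraries were at 0. The limit of 150 did not fall at a gap. Just inside it, c103297_g1 had a margin of 0.84, with 4.58 to 14.6 CPM in nucellus and 1.27 to 4.30 CPM in integument. Also just inside, c105667_g1 had a margin of 0.83, with 0.452 to 23.0 CPM in nucellus and 0 to 0.370 CPM in integument. The neighbours outside the limit had like values. Just outside, c108050_g1 had a margin of 0.81, with 6.28 to 32.7 CPM in nucellus and 1.57 to 4.72 CPM in integument. The next feature, c30460_g1, had a margin of 0.80, with 2.69 to 12.3 CPM in nucellus and 0.0663 to 2.21 CPM in integument.

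Length was not used in the selection. The implied lengths of the 150 had a median of 1838 bases and quartiles of 1197 and 2280 bases, against a median of 1986 bases and quartiles of 1441 and 2646 bases over the tested features. Variation between nucellus libraries is given beside that of all tested features, which are not matched to the 150 by level. The SD of log2(CPM + 1) after TMM scaling, over the 18 nucellus libraries, had a median of 0.60 for the 150 and 0.41 for all tested features. The added 1 lowers the SD of scarce features more than that of abundant ones. The highest nucellus library held a median of 5.81 times the CPM of the lowest. The steadiest was c10716_g1, with an SD of 0.30 and 12.4, 18.3 and 28.4 CPM in its lowest, median and highest nucellus libraries, against 1.18 to 3.21 CPM in integument. The least steady was c13477_g1, with an SD of 1.48 and 3.86, 12.2 and 72.0 CPM in nucellus, against at most 1.17 CPM in integument.

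As a group the 150 features took 0.684 ± 0.166% of the counts of a nucellus library, with a range of 0.422% to 1.04%, and 0.0235 ± 0.00503% of the counts of an integument library, with a range of 0.0154% to 0.0350% (SD, n = 18 each). Within MT nucellus the share was 0.832 ± 0.0426% at 18 DAP, 0.611 ± 0.0945% at 28 DAP and 0.702 ± 0.313% at 32 DAP (SD, n = 3 each). Within WT nucellus it was 0.724 ± 0.210%, 0.537 ± 0.0424% and 0.698 ± 0.0584% at the same stages (SD, n = 3 each). After TMM scaling the summed level was 7753 ± 117, 5955 ± 731 and 6390 ± 2251 CPM in MT at these stages. In WT it was 6896 ± 581, 6596 ± 2373 and 6510 ± 195 CPM (SD, n = 3 each). The low share of WT at 28 DAP thus depends on the scaling through its replicate 1. That library held 0.547% of counts but 9255 CPM after TMM scaling, the highest of all 18. Replicates 2 and 3 of WT at 28 DAP held 0.573% and 0.490% of counts, and 5838 and 4695 CPM after TMM scaling. On that scale both lay below the mean of every other nucellus group. The wide spread of MT at 32 DAP came from single libraries at 0.422%, 0.644% and 1.04%, which are the lowest share of all 18, a middle one and the highest share of all 18. The integument share was highest in MT at 32 DAP, at 0.0311 ± 0.00389%, against 0.0228 ± 0.00336% in WT at 32 DAP (SD, n = 3 each). Replicates 2 and 3 of that MT integument group held the highest integument value of 20 and 29 of the 150 features.

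**Figure D3:**
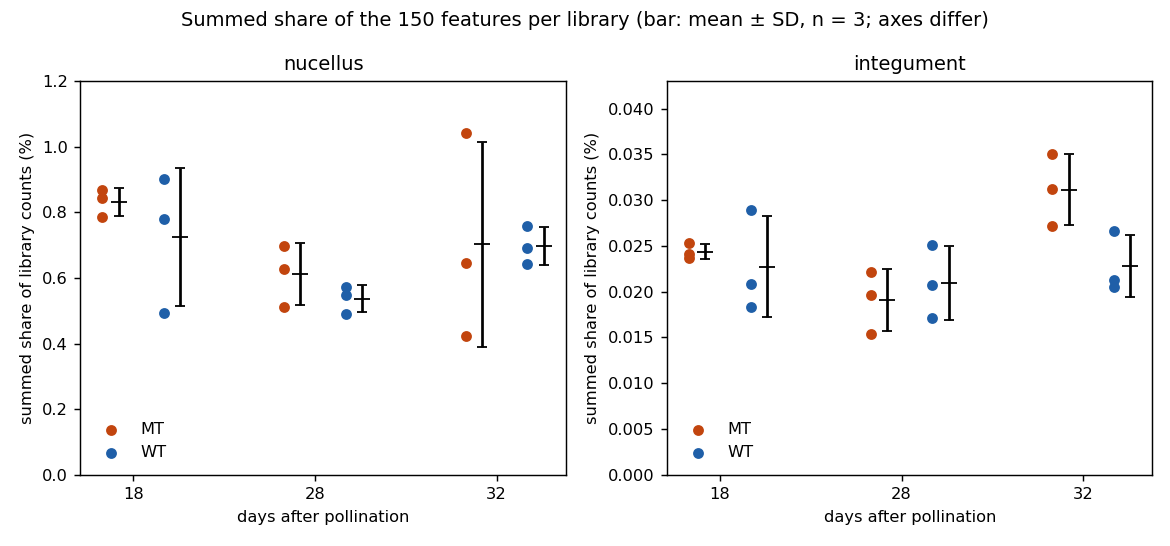
Share of all counts, in percent, taken by the 150 features in each nucellus library (left panel) and integument library (right panel, a smaller axis) by days after pollination, MT left of WT; points are libraries and bars the mean ± SD of 3. Nucellus libraries lie between 0.422% and 1.04%, and the 3 libraries of MT nucellus at 32 DAP cover that whole range.

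The separation was present in every cultivar and stage. The difference between nucellus and integument group medians, on the log2(CPM + 1) scale, had a median over the 150 features of 3.33, 3.17 and 2.83 in MT and of 3.13, 2.95 and 2.87 in WT, at 18, 28 and 32 DAP. WT nucellus at 28 DAP most often set the lower edge of the margin, for 55 of the 150 features, and WT nucellus at 18 DAP least often, for 8. These counts are on CPM without TMM scaling and include replicate 1 of WT at 28 DAP. On the integument side, MT at 32 DAP set the upper edge for 52.

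Replicate 1 of WT nucellus at 28 DAP was the library that the membership depended on most. Without it 239 features were eligible in place of 187, and 124 of the 150 were chosen again. Leaving out any other single library kept 137 to 150. In that library the features also spread furthest around their own means: after TMM scaling 41 lay more than 2-fold above and 10 more than 2-fold below their mean over the 18 nucellus libraries. The interquartile range of these deviations was 1.38 on the log2 scale for the 150 and 1.08 for all tested features. Without TMM scaling 9 lay above and 37 below. Replicate 3 of MT nucellus at 18 DAP and replicates 2 and 3 of MT nucellus at 32 DAP also spread widely. Their interquartile ranges after TMM scaling were 1.14, 1.18 and 0.958. Replicate 2 of MT at 32 DAP held the lowest nucellus CPM of 22 features, and replicate 3 of that group the highest of 36.

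**Figure D4:**
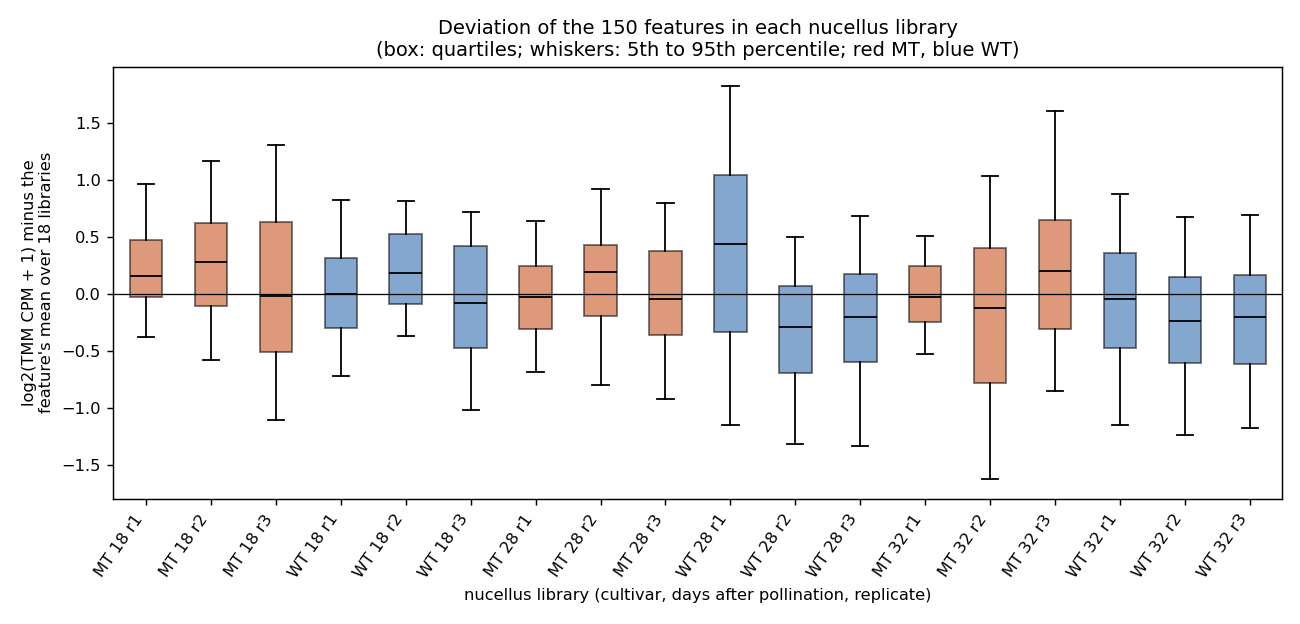
Deviation of the 150 features in each nucellus library from their mean over the 18 nucellus libraries, on the log2(TMM-scaled CPM + 1) scale; boxes show quartiles, whiskers the 5th to 95th percentile, MT in red and WT in blue. Replicate 1 of WT at 28 DAP has the widest box, with a median of 0.44 and 41 features more than 2-fold above their mean.

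The selection compared tissues, not stages or cultivars. Its margin was taken from the lowest nucellus group, however, and every nucellus library had to exceed the integument, so a feature that was low in 1 stage or cultivar was less likely to be chosen. Stage and cultivar within the nucellus were tested with edgeR's quasi-likelihood test over all 57344 features, with a Benjamini-Hochberg adjusted p under 0.05 as the call. The 150 features share their libraries and are not replicates of a condition. Values per library in the following are TMM-scaled CPM.

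Between 32 and 18 DAP, 1 of the 150 features changed, c127604_g1, which fell; 0.0924% of all tested features were called in this comparison and 0.0471% were called lower. Its implied length was 1081 bases. In MT nucellus it held 7.49, 30.5 and 9.54 CPM at 18 DAP, 8.46, 4.85 and 6.87 CPM at 28 DAP, and 4.74, 7.87 and 4.90 CPM at 32 DAP. In WT nucellus it held 7.29, 5.64 and 6.80 CPM at 18 DAP, 3.08, 0.979 and 3.21 CPM at 28 DAP, and 1.11, 0.396 and 0.944 CPM at 32 DAP. The lowest values were those of WT, where the 32 DAP libraries held only 8 to 25 counts and lay below every earlier WT library except the one at 0.979 CPM. In MT the values at 32 and 18 DAP overlapped.

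Over both cultivars c127604_g1 averaged 3.33 ± 2.98 CPM at 32 DAP and 11.2 ± 9.53 CPM at 18 DAP (SD, n = 6 each). The fitted log2 fold change of 32 against 18 DAP was -2.22 ± 0.44 (SE), with an edgeR adjusted p of 0.0392. The call did not survive every single omission. It was lost when any of the 6 nucellus libraries at 32 DAP, 5 of the 6 at 18 DAP, replicate 3 of MT nucellus at 28 DAP or replicate 2 of WT integument at 32 DAP was left out, with an edgeR adjusted p of up to 0.160 without replicate 2 of MT at 18 DAP, the library at 30.5 CPM. The log2 fold change in that case was -1.78. By unadjusted p under 0.05, 18 of the 150 differed between 32 and 18 DAP, beside 8.62% of all tested features. DESeq2 called 6 of the 150, beside 0.53% of all tested, and limma-voom called 6, beside 0.148%. Those of the 150 were all lower at 32 DAP, while the shares of all tested cover either direction.

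c127604_g1 also had the smallest p of the 150 between the cultivars, both at 32 DAP and for the mean over the stages. At each stage the lowest MT library lay above the highest WT library, narrowly at 18 DAP, where 7.49 CPM in MT stood against 7.29 CPM in WT, and widely at 32 DAP, where 4.74 CPM in MT stood against 1.11 CPM in WT. Over the 3 stages it had a mean of 9.47 ± 8.07 CPM in the MT libraries and of 3.27 ± 2.69 CPM in the WT libraries (SD, n = 9 each). The mean log2 fold change of MT against WT was 1.86 ± 0.36 (SE), with an edgeR adjusted p of 0.0633, which did not pass. It passed when replicate 1 or 3 of WT nucellus at 28 DAP or replicate 1 of MT nucellus at 32 DAP was left out, with edgeR adjusted p-values of 0.0365, 0.0484 and 0.0374. At 32 DAP alone the log2 fold change was 2.82 ± 0.65 (SE), with an edgeR adjusted p of 0.106, and of 0.0540 without replicate 1 of WT at 28 DAP. Its integument level was too low to compare, with 8 counts over all 18 libraries.

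**Figure D5:**
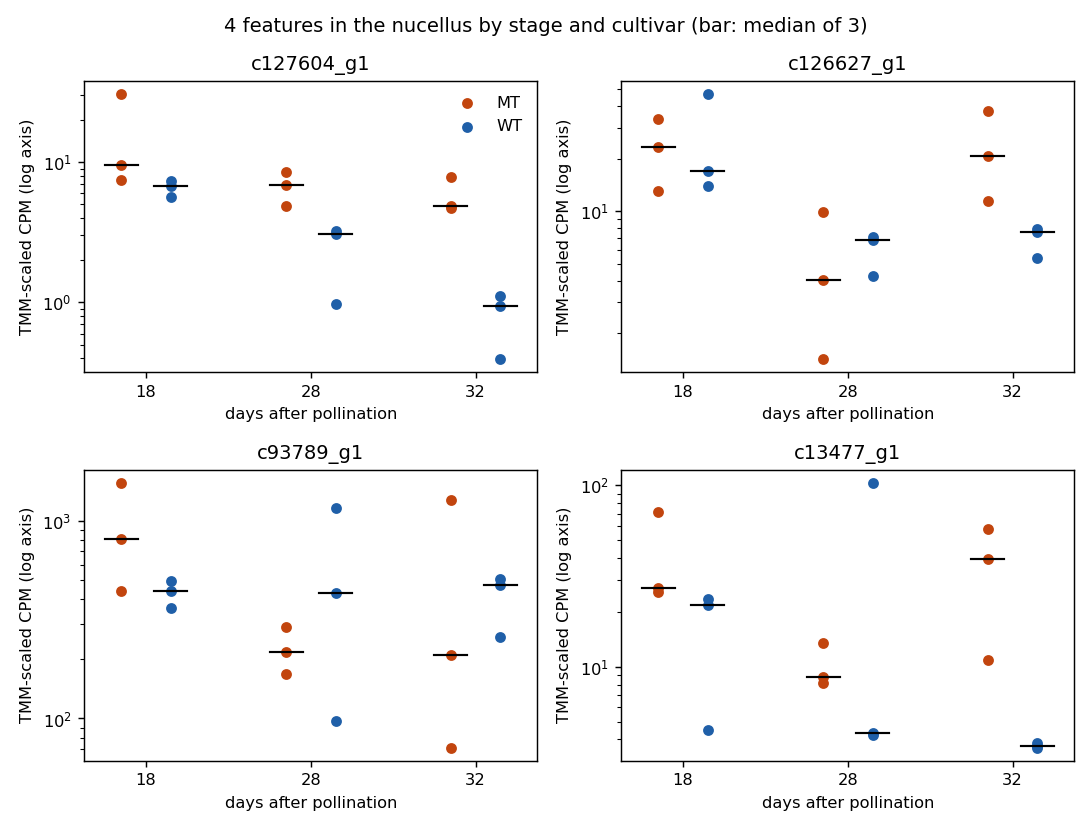
TMM-scaled CPM (log axes) of 4 of the 150 features in each nucellus library by days after pollination, MT left of WT; bars are medians of 3. c127604_g1 lies between 0.396 and 1.11 CPM in WT at 32 DAP, c126627_g1 lies lower at 28 than at 18 DAP in both cultivars, and c93789_g1 and c13477_g1 each have single high libraries, among them 1156 and 103 CPM in WT at 28 DAP.

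Between 28 and 18 DAP, edgeR called 0 of the 150 features, beside 0.131% of all tested features. By unadjusted p under 0.05, 11 of the 150 differed, beside 13.8% of all tested. DESeq2 called 4 of the 150, beside 1.58% of all tested, and limma-voom called 6, beside 0.143%. Those of the 150 were all lower at 28 DAP, while the shares of all tested cover either direction. The smallest p belonged to c126627_g1, a short feature with an implied length of 339 bases. At 28 DAP it held 9.90, 1.43 and 4.01 CPM in MT and 4.25, 6.80 and 7.13 CPM in WT. At 18 DAP it held 23.3, 33.6 and 13.0 CPM in MT and 46.6, 14.0 and 16.9 CPM in WT. The 6 libraries at 28 DAP all lay below the 6 at 18 DAP. The log2 fold change of 28 against 18 DAP was -2.14 ± 0.47 (SE), with an edgeR adjusted p of 0.0563. It passed when replicate 1 of MT nucellus at 28 or 32 DAP, replicate 3 of WT nucellus at 28 DAP, or replicate 1 or 3 of WT integument at 18 or 28 DAP was left out, with edgeR adjusted p-values from 0.0183 to 0.0494.

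At the last stage the cultivars stood apart in c126627_g1 without passing the test. At 32 DAP it held 11.4, 20.5 and 37.5 CPM in MT, above all 3 MT libraries of 28 DAP. In WT it held 5.38, 7.86 and 7.60 CPM, of which the first lay inside the range of WT at 28 DAP and the others just above it. The log2 fold change of MT against WT at 32 DAP was 1.73 ± 0.65 (SE), with an edgeR adjusted p of 0.380. The change of its MT-WT difference over the stages had an edgeR adjusted p of 0.460. It also had the smallest p of the 150 between 32 and 28 DAP, with a log2 fold change of 1.19 ± 0.46 (SE) and an edgeR adjusted p of 0.439, or 0.740 without replicate 1 of WT at 28 DAP. In that comparison edgeR called 0 of the 150 and 0% of all tested features. DESeq2 also called 0 of the 150, beside 0.075% of all tested, as did limma-voom, beside 0%, while 4 of the 150 were under an unadjusted p of 0.05, beside 9.17% of all tested.

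Counted over the list, with no test, the earliest stage was most often the highest. By group median of TMM-scaled CPM, 57 were highest at 18 DAP in MT and 74 in WT, or 38% and 49.3%, against 31.0% and 37.2% of all tested features. Both cultivars had their highest level at 18 DAP for 39 features, or 26%, against 14.0% of all tested. The lowest level fell at 32 DAP for 66 features in each cultivar, or 44%, against 30.2% in MT and 31.3% in WT for all tested. The highest stage was the same in both cultivars for 63 features, or 42%, against 34.3% of all tested.

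The sizes of these shifts were small. The median log2 fold change over the 150 was -0.08 for 28 against 18 DAP and -0.08 for 32 against 18 DAP, against 0.00 and 0.01 over all tested features. For 32 against 28 DAP the median was -0.08, and its sign turned in 4 of 45 alternatives: it was 0.08 without replicate 1 of WT at 28 DAP, just above 0 with sample quality weights, 0.09 on log2(FPKM + 1) and 0.10 on log2(FPKM + 0.1). On those FPKM scales the median over all tested features was itself 0.09 and 0.20. Among the leading features, the mean of c95166_g1 over both cultivars was 888 ± 87.1, 784 ± 286 and 966 ± 431 CPM at 18, 28 and 32 DAP (SD, n = 6 each), with no difference that passed. By cultivar, c95166_g1 averaged 910, 606 and 740 CPM in MT and 867, 961 and 1191 CPM in WT (n = 3 each). c85961_g1 and c18891_g1 had lower means at the later stages over both cultivars. The mean of c85961_g1 was 122 ± 38.3, 109 ± 41.7 and 67.1 ± 26.9 CPM, and that of c18891_g1 was 466 ± 109, 353 ± 112 and 247 ± 129 CPM (SD, n = 6 each). By cultivar, c85961_g1 averaged 116, 136 and 71.5 CPM in MT and 129, 81.9 and 62.7 CPM in WT (n = 3 each), so in MT its mean was not lower at 28 DAP. Neither passed for 32 against 18 DAP, with edgeR adjusted p-values of 0.418 and 0.578.

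Between the cultivars edgeR called 0 of the 150 features at any stage. At 18 DAP 0.00174% of all tested features were called, and 2 of the 150 were under an unadjusted p of 0.05, beside 7.51% of all tested. DESeq2 called 0 of the 150, beside 0.0192% of all tested, and limma-voom 0, beside 0%. The smallest p was that of c94635_g1, which held 7.49, 7.67 and 7.25 CPM in MT and 2.26, 3.61 and 3.30 CPM in WT. The cultivars did not overlap for this feature at 18 DAP, but the log2 fold change of 1.29 ± 0.56 (SE) had an edgeR adjusted p of 0.619. At 28 and 32 DAP the same feature had a lower mean in MT, at 6.27 ± 0.506 and 3.63 ± 2.18 CPM, against 8.52 ± 1.04 and 6.66 ± 0.886 CPM in WT (SD, n = 3 each).

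At 28 DAP edgeR called 0 of the 150 and 0% of all tested features between MT and WT, and 19 of the 150 were under an unadjusted p of 0.05, beside 12.4% of all tested. DESeq2 called 1 of the 150, beside 0.846% of all tested, and limma-voom 0, beside 0%. c88803_g1 had the smallest p, with 63.5, 153 and 81.8 CPM in MT against 25.2, 49.6 and 23.3 CPM in WT. Its log2 fold change was 1.60 ± 0.46 (SE), with an edgeR adjusted p of 0.201. Without replicate 1 of WT at 28 DAP, at 25.2 CPM, it was 1.44 with an edgeR adjusted p of 0.735. At 32 DAP edgeR called 0 of the 150, beside 0.0541% of all tested features, and 21 of the 150 were under an unadjusted p of 0.05, beside 9.53% of all tested. DESeq2 called 1 of the 150 there, beside 0.771% of all tested, and limma-voom 0, beside 0.00174%. For the mean over the stages edgeR called 0 of the 150, beside 0.0157% of all tested. There 9 of the 150 were under an unadjusted p of 0.05, beside 10.6% of all tested. DESeq2 called 3 of the 150, beside 0.631% of all tested, and limma-voom 2, beside 0.0244%. Those of the 150 were all higher in MT, while the shares of all tested cover either direction.

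Counted over the list, again with no test, MT was more often the higher cultivar by group median. By group median of TMM-scaled CPM, 91, 92 and 95 of the 150 were higher in MT than in WT at 18, 28 and 32 DAP, or 60.7%, 61.3% and 63.3%, against 46.8%, 50.5% and 50.8% of all tested features. At all 3 stages 40 features were higher in MT and 13 were lower, or 26.7% and 8.67%, against 12.5% and 12.1% of all tested. The median log2 fold change of MT against WT over the 150 was 0.16 at 18 DAP, -0.07 at 28 DAP and 0.23 at 32 DAP, against -0.03, -0.03 and 0.04 over all tested features. The negative sign at 28 DAP turned in 5 of 45 alternatives. Without replicate 1 of WT the median was 0.22, and 101 of the 150 in place of 66 had a positive log2 fold change. It was 0.04 with limma-voom, 0.15 with sample quality weights, 0.25 on log2(FPKM + 1) and 0.32 on log2(FPKM + 0.1), where the median over all tested features was 0.13 and 0.28 on the FPKM scales. For the 4 features with the largest margins the mean log2 fold changes of MT against WT were -0.43 ± 0.39 for c95166_g1, -0.39 ± 0.29 for c45637_g1, 0.23 ± 0.45 for c36715_g1 and -0.48 ± 0.31 for c28486_g1 (SE), and none passed.

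A change of the difference between MT and WT from stage to stage was tested in the same model, and edgeR called 0 of the 150 and 0% of all tested features. By unadjusted p under 0.05, 16 of the 150 passed, beside 11.6% of all tested. DESeq2 called 0 of the 150, beside 0.696% of all tested, and limma-voom 0, beside 0%. c13477_g1 had the smallest p, with an edgeR adjusted p of 0.274. Its MT-WT difference at 28 DAP minus that at 18 DAP was -3.18 on the log2 scale with all libraries and -0.08 without replicate 1 of WT at 28 DAP, where the edgeR adjusted p of the change over the stages was 0.620. It held 27.3, 26.1 and 71.4 CPM in MT and 4.52, 21.9 and 23.7 CPM in WT at 18 DAP. At 28 DAP it held 8.18, 8.79 and 13.6 CPM in MT and 103, 4.35 and 4.26 CPM in WT. At 32 DAP it held 11.0, 39.6 and 57.9 CPM in MT and 3.69, 3.61 and 3.82 CPM in WT. Apart from the WT library at 103 CPM, which is again replicate 1 at 28 DAP, MT lay above WT at 28 and 32 DAP with no overlap. At 32 DAP its log2 fold change of MT against WT was 3.28 ± 0.96 (SE), with an edgeR adjusted p of 0.237.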

How the data were processed

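Laser-captured nucellus and integument were profiled by RNA-seq in 36 libraries. Per the labels' protocols, 10 to 20 ng of total RNA was amplified by SPIA with random primers and sequenced as paired ends on 2 instrument models, not assigned to libraries. The authors deposited read counts per feature, whole numbers used as they stood, and FPKM. RSEM, Bowtie2, cutadapt and DESeq, without versions, are listed per the submitters' processing notes; the reference was not given in the sources used here. RSEM divides reads between similar sequences, so a feature with a near-identical copy is uncertain, and whether its estimates were rounded is not recorded.

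The tests used edgeR 4.0.16 (R 4.3.3) on the deposited counts: filterByExpr, TMM scaling, a mean for each of 12 groups over 36 libraries, robust dispersions, and Benjamini-Hochberg adjustment over 57344 features. The standard error came from the F statistic. Alternatives used DESeq2 1.42.0, limma 3.58.1 (voom, or log2 of FPKM plus 1 or 0.1), no filter on low counts, RLE scaling, nucellus libraries alone, the replicate number as a block, omission of each library and, for single far values, plain CPM. The edgeR step was also run on simulated data, with changes added only to the more abundant features. Its outcome is not given here, and no result rests on it. Depth covers counting error only. Ratios of means had more than 3 integument counts each.

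The members and the lists were chosen with earlier results of these data known. Features are named by rule: the 10 largest margins, the neighbours of the limit, extremes of level, integument median (ties by mean) and SD, and, per comparison, called features or the smallest p. c127604_g1 was also named for its ratio after the values were seen.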

Additional observations from a re-analysis of the deposited data

Results flagged for a closer look

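For the 21 named features and for the summed level of the 150, each set of 6 nucellus libraries at a stage was searched for a value far from the other 5, by Dixon's criterion on TMM-scaled CPM. Of 66 sets, 15 held such a value. The criterion's rate of about 1 in 20 holds for independent sets of normally distributed values. These sets share libraries and pool the cultivars, and some features were named for their spread or smallest p. The count can therefore not be set against that rate. On plain CPM, an alternative chosen after seeing the data, 13 sets held such a value, and 8 of the 15 did so again. No explanation was tested for any of them.

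Replicate 1 of WT at 28 DAP supplied 7, all of them high. It held 473 CPM of c45637_g1, against 127 to 246 CPM in the other libraries of that stage, and 1156 CPM of c93789_g1, against 97.1 to 429 CPM. It held 459 CPM of c92660_g1, against 54.9 to 91.5 CPM, and 103 CPM of c13477_g1, against 4.26 to 13.6 CPM. It held 65.4 CPM of c66011_g1, against 13.9 to 23.7 CPM, 30.3 CPM of c10716_g1, against 15.4 to 19.1 CPM, and 6.75 CPM of c105667_g1, against 0.931 to 2.10 CPM. This library has a TMM factor of 0.592, which raises each of these values over plain CPM. On plain CPM only 2 of the 7 still stood apart, c92660_g1, at 271 CPM against 53.9 to 104 CPM, and c13477_g1, at 60.9 CPM against 4.27 to 12.5 CPM. c10716_g1, at 17.9 CPM, then lay inside the range of the others, 14.6 to 19.9 CPM.

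Replicate 3 of MT at 18 DAP held 1553 CPM of c93789_g1, against 364 to 810 CPM, 320 CPM of c92660_g1, against 165 to 212 CPM, and 71.4 CPM of c13477_g1, against 4.52 to 27.3 CPM. Replicate 3 of MT at 32 DAP held 1272 CPM of c93789_g1, against 71.3 to 510 CPM, 19.6 CPM of c105667_g1, against 0.400 to 2.58 CPM, and 7.26 CPM of c1896_g1, against 1.17 to 2.91 CPM. c93789_g1 thus had a single high library at every stage, in a different library each time; on plain CPM only the one at 32 DAP still stood apart. Replicate 2 of MT at 18 DAP held 30.5 CPM of c127604_g1, against 5.64 to 9.54 CPM. The only low value was 0.876 CPM of c1896_g1 in replicate 3 of WT at 18 DAP, against 3.78 to 5.10 CPM.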

How the results depend on the processing

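The count of the 150 features called moved with the test used. With DESeq2 it was 1 for MT against WT at 28 DAP, 1 at 32 DAP, 3 for the mean over stages, 4 for 28 against 18 DAP and 6 for 32 against 18 DAP. With limma-voom it was 2 for the mean of MT against WT, 6 for 28 against 18 DAP and 6 for 32 against 18 DAP. With sample quality weights it was 7 and 15 for MT against WT at 28 and 32 DAP, 10 for their mean over stages, 21 for 28 against 18 DAP, 16 for 32 against 18 DAP and 2 for the change of the cultivar difference. With limma on log2(FPKM + 1) it was 4 and 1 for MT against WT at 28 and 32 DAP, 6 for their mean, 8 for 28 against 18 DAP and 7 for 32 against 18 DAP, and on log2(FPKM + 0.1) it was 1, at 32 DAP, 1 for the mean, 1 for 28 against 18 DAP and 2 for 32 against 18 DAP. With no filter on low counts it was 1 for the mean of MT against WT, and with the nucellus libraries alone 3 for 32 against 18 DAP. Every stage call under these settings was lower at the later stage, and every call for the mean of MT against WT was higher in MT. The share of all tested features called in each direction is not given for these settings, DESeq2 and limma-voom included. The shared direction can therefore not be read as particular to the 150. No setting gave a call for MT against WT at 18 DAP or for 32 against 28 DAP. Omitting single libraries gave 0 to 1 for MT against WT at 32 DAP and for the mean, 0 to 3 for 28 against 18 DAP and 0 to 4 for 32 against 18 DAP. Shares of all tested features called are given above for DESeq2 and limma-voom, but not for the other settings here. The counts under those other settings therefore do not show whether the 150 were called more often than other features.

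The replicate numbers were treated only as names of the libraries. Of 45 same-numbered nucellus pairs, 9 had a correlation of deviations over 0.1 (range -0.296 to 0.315). The 90 other nucellus pairs ranged from -0.352 to 0.459, and 5 of 18 libraries had their closest partner under the same number. Pairing between nucellus and integument libraries was not examined. With the replicate block, 0 features were called for 32 against 18 DAP, with an adjusted p of 0.0542 for c127604_g1, and no other count moved. Called or not, c127604_g1 kept a negative log2 fold change for 32 against 18 DAP in all 45 alternatives, from -2.39 to -1.56, and was called in 31. Its mean difference between MT and WT was called in 9 of 45, and c126627_g1 for 28 against 18 DAP in 11 of 45. No named result reversed its sign in any alternative. For the change of the MT-WT difference over the stages, only the step from 18 to 28 DAP was checked for its sign. That step ran from -3.70 to -0.02 for c13477_g1.

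Of the 150 features, 120 were chosen again on FPKM, 136 on TMM-scaled CPM, 137 with log2(CPM + 0.1) and 124 with an integument limit of 10 CPM, and 82 with a limit of 1 CPM, which leaves 100 to choose. Omitting 1 library kept 124 to 150. As a share of summed FPKM the 150 took 1.43% in nucellus and 0.0299% in integument, against 0.684% and 0.0235% of counts. Depth limits features under 1 CPM, whose counts are few in each library. The cause of these changes was not tested.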
